A study of Mus musculus with 8 samples.

Results

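DNA replication and S phase genes were examined in CD8+ T cells sorted from mouse tumours, as 41 genes chosen by name from the 20029 genes of the deposited table. All 41 were present. They encode the proteins that license and open replication origins, copy the DNA, supply nucleotides, rebuild chromatin behind the fork and govern entry into S phase. The study measured RNA in 8 libraries, 4 from Pglyrp1 knockout (KO) animals carrying the B6.129S4-Pglyrp1tm1.1Lky/J allele (replicates 1 to 4) and 4 from C57BL/6J wild-type (WT) animals (replicates 6 to 9). Both groups bore subcutaneous tumours of MC38-OVA, a mouse colon carcinoma line made to express ovalbumin, and each library came from 1000 sorted cells. The labels give neither age nor sex, do not say whether the WT animals were littermates, and name no cell type to which the loss of Pglyrp1 is limited. The design text counts 4 mice per genotype, so each p-value sets the group difference against the spread between libraries of different mice. Differences in sorting and library preparation are part of that spread.

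Replication is prepared when the origin recognition complex, Cdc6 and Cdt1 load the MCM helicase onto DNA, and begins when Cdc45 and the GINS complex join that helicase. Most genes of this machinery are targets of E2F transcription factors and are transcribed as a cell passes from G1 into S phase, so in a bulk sample their RNA follows the share of cells in cycle. Tumour CD8+ T cells hold both resting and dividing cells. In bulk RNA, fewer cells in cycle and less RNA per cycling cell cannot be told apart.

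Library totals of the deposited values ran from 2223162 to 3342847 and were brought to 1000000 each. The resulting values, which are per transcript length, are called TPM here. Pglyrp1 had 123 to 209.6 TPM in WT libraries and 0 in every KO library. Cd8a lay between 376 and 506 TPM in every library, and the 7 measured CD8 T cell markers were all present in each. Cd8b1, the other CD8 coreceptor gene, had every KO library (1039 to 1329 TPM) below every WT library (1340 to 1728 TPM). Of all genes tested 2.4% were so separated, and the limma adjusted p of Cd8b1 was 0.502. Of the 7 markers 5 had negative log2 fold changes. KO 3, KO 4, WT 6 and WT 9 stood apart in markers of other cells or states. The summed level of 12 myeloid markers was 2871 and 5493 TPM in KO 3 and KO 4 and between 85.9 and 397 TPM in the remaining 6, and that of 8 NK cell markers was 2444 and 2788 TPM in KO 3 and KO 4 and 86.2 to 259 TPM elsewhere. In KO 3 and KO 4 most of that NK sum was Tyrobp and Fcer1g, which myeloid cells also express. In KO 4 the 7 markers of tumour and stromal cells summed to 188 TPM, against 1.63 to 18.2 TPM elsewhere. Erythroid and platelet markers reached 2103, 1503 and 849 TPM in KO 1, KO 4 and WT 9 and 3.60 to 57.6 TPM elsewhere, B cell markers summed to 6.05 to 52.3 TPM, and CD4 and regulatory T cell markers to 52.8 to 234 TPM. The 8 markers of naive and stem-like T cells summed to 2229.6 and 1997 TPM in WT 6 and WT 9 and to 371 to 1321 TPM in the rest, and ribosomal protein genes took 37.5% and 37.1% of TPM in WT 6 and WT 9 against 20.8% to 30.6% in the rest.

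Promoters of 5 licensing genes and of the clamp loader gene Rfc3 are shown because E2F proteins bind sequences of the kind searched here. Most of the genes moved together across libraries, and the part of such sequences in that movement was not tested. RefSeq promoter windows (GRCm38.p6, 250 bases before to 50 bases after a start) were found for 34 of the 41 genes, in 39 windows. Each was searched on both strands for the letters TTTCCCGC, TTTGGCGC, TTTCGCGC and TTTGCCGC, the expansions of one E2F consensus, which can overlap each other on opposite strands. At least 1 match was present in 33.3% of these windows, against 2.26% of all 32851 windows and 4.1% of the windows of genes tested for expression. By role, 7 of 9 licensing genes with a window held a match, and 0 of 6 nucleotide supply genes. Only these exact letters were searched, so a window without a match is not shown to lack an E2F site. In the stretches below, written 5′ to 3′ in the direction of the gene, capitals mark the matches.
Mcm5 (chr8:75109336-75109387, plus strand): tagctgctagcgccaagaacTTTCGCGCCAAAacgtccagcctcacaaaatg
Mcm6 (chr1:128359784-128359835, minus strand): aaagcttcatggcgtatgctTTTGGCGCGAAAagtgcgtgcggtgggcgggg
Mcm6 (chr1:128359725-128359772, minus strand): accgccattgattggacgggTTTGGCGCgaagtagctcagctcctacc
Mcm7 (chr5:138172021-138172068, minus strand): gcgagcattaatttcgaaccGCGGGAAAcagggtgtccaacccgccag
Orc1 (chr4:108579407-108579454, plus strand): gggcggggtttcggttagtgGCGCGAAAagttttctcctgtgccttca
Cdc6 (chr11:98907993-98908040, plus strand): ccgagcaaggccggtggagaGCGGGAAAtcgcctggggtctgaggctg
Rfc3 (chr5:151651181-151651238, minus strand): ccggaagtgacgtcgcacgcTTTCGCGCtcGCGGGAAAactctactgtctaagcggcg
Mcm3, Cdt1 and, with a further match, Mcm7 held matches just after the start, which are not printed. Matches in Clspn, Lig1, Pola1, Pold1 and Uhrf1 are not printed either. In Mcm5 and in the upstream stretch of Mcm6, 2 of the searched sequences overlap on opposite strands, so a single run of capitals holds both. Of 25 further replication genes with a window 7 held a match (25.8% of windows), and of 19 genes of G2/M and mitosis 1 did. The 13 replication genes with a match and the 21 without one had the same median log2 fold change between KO and WT, 0.25 in each.

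KO and WT cells were compared to ask whether loss of Pglyrp1, which encodes a peptidoglycan recognition protein, came with a different level of replication transcripts. None of the 41 genes passed the test, and the KO and WT values overlapped for every gene. All 41 passed the filter of at least 1 TPM in at least 4 libraries and were tested with limma on log2(TPM + 1) among 10732 genes. At a Benjamini-Hochberg adjusted p under 0.05, 0 of 41 were called, against 0.028% of all genes tested. At an unadjusted p under 0.05 there was 1 gene higher in KO, Pcna, against 6.01% of all genes, and 0 lower, against 3.07%. No gene had every KO library above every WT library (2.62% of all genes did) or every KO library below every WT library (2.4%). The fitted log2 fold change was positive for 38 of 41 genes, as for 55.2% of all genes tested, with a median of 0.25 against 0.04 for all genes. With libraries scaled without ribosomal protein and the top 20 genes by level, 32 of 41 were positive with a median of 0.12, and with quantile normalization 34 with a median of 0.14. Those scalings also moved the median of all genes, to -0.08 and -0.05, so the median of the 41 stayed 0.19 and 0.20 above it, against 0.20 as first scaled. Most of the genes shared their highs and lows across libraries, so these signs are not separate observations. The smallest limma adjusted p among the 41 was 0.525.

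**Figure D1:**
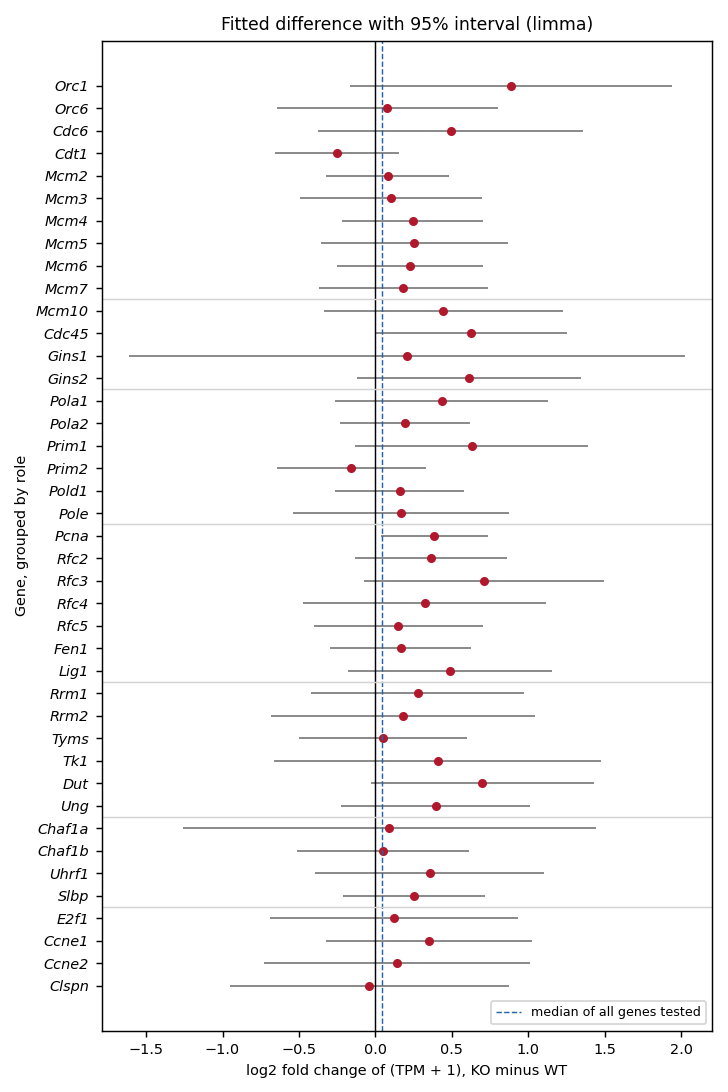
Fitted log2 fold change of (TPM + 1), KO minus WT, with its 95% interval from limma for each of 41 genes, in the order of their roles, and the median of all genes tested as a dashed line. The points of 38 genes lie above 0 (32 with libraries scaled without ribosomal protein and the top 20 genes by level), and the intervals of 40 genes include 0, Pcna being the exception.

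The origin licensing genes encode the origin recognition subunits Orc1 and Orc6, the loading factors Cdc6 and Cdt1, and the 6 subunits of the MCM helicase. Their log2 fold changes ran from -0.25 for Cdt1 to 0.89 for Orc1, with 9 of 10 positive and 0 called. Mcm2, Mcm3 and Orc6 turned negative (-0.047, -0.027 and -0.048) when ribosomal protein and the top 20 genes by level were left out of the scaling. Mcm6, the most abundant (chromosome 1, 128331575 to 128359705), was at 131, 152, 192 and 221 TPM in KO 1 to 4 and at 113, 166, 187 and 129 TPM in WT 6 to 9. Its groups overlapped, with KO 1 and KO 2 among WT values. KO 4 and KO 3 were the highest and WT 6 and WT 9 the lowest. The mean was 174 ± 40.3 TPM in KO and 149 ± 34.0 in WT (SD, n = 4), a log2 fold change of 0.23 with a 95% interval of -0.25 to 0.71. Orc1 (chromosome 4, 108575705 to 108616030), the largest subunit of the origin recognition complex, was at 2.77, 3.02, 5.38 and 5.05 TPM in KO libraries against 0.406, 5.85, 1.39 and 1.18 TPM in WT libraries. WT 6, WT 8 and WT 9 were below all KO libraries and WT 7 was above them all. The deposited values are whole numbers, and a step of 1 equals 0.406 TPM in WT 6, so Orc1 is listed there at 1. The log2 fold change was 0.89 (SE 0.47, limma adjusted p = 0.598).

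The MCM subunits are present once each in the helicase, yet their transcripts were not level. Mcm6 was the highest of the 6 in 8 of 8 libraries, with a mean of 161 TPM over all libraries. Mcm3 and Mcm7 followed at 115 and 112 TPM, then Mcm5 at 94.3, Mcm2 at 85.6 and Mcm4 at 81.4 TPM. Below Mcm6 the order changed between libraries, so the order of the means did not hold in each. Mcm4 was the lowest of the 6 in 5 libraries, Mcm2 in 2 and Mcm5 in 1. Cdt1, the loading factor held back by geminin outside G1, departed from most of the set, though Prim2 and Clspn also had negative log2 fold changes. It was at 60.3, 59.3, 39.2 and 52.6 TPM in KO libraries against 56.1, 78.3, 57.3 and 59.4 TPM in WT libraries. The lowest value of Cdt1 was in KO 3, and it was near its mean in WT 6 and WT 9, where most of the other genes were low. Ung was also near its mean of 14.0 TPM there, at 13.4 and 14.2 TPM.

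Cdc45 and the GINS subunits complete the active helicase, and Mcm10 helps to start it. All 4 had positive log2 fold changes, from 0.21 for Gins1 to 0.62 for Cdc45, with 0 called. With 0.1 in place of 1 added before the logarithm Gins1 was at -0.42, and 37 of the 41 genes were positive. Cdc45 (chromosome 16, 18780447 to 18811972) was at 26.3, 48.1, 38.3 and 43.8 TPM in KO libraries against 24.4, 39.1, 16.0 and 23.2 TPM in WT libraries. The groups overlapped through WT 7, which was above KO 1 and KO 3. The means were 39.1 ± 9.41 and 25.7 ± 9.71 TPM (SD, n = 4; limma unadjusted p = 0.0514, adjusted p = 0.550). Gins1 had the widest interval of the set, -1.61 to 2.02, and was the one gene listed at 0 in a library, KO 1, with 6.35 to 13.9 TPM in the other KO libraries and 1.80 to 8.13 TPM in WT. Its partner Gins2 was at 23.9 to 36.2 TPM in KO and at 8.13 TPM in WT 6 and 20.1 to 24.3 TPM in the other WT libraries.

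**Figure D2:**
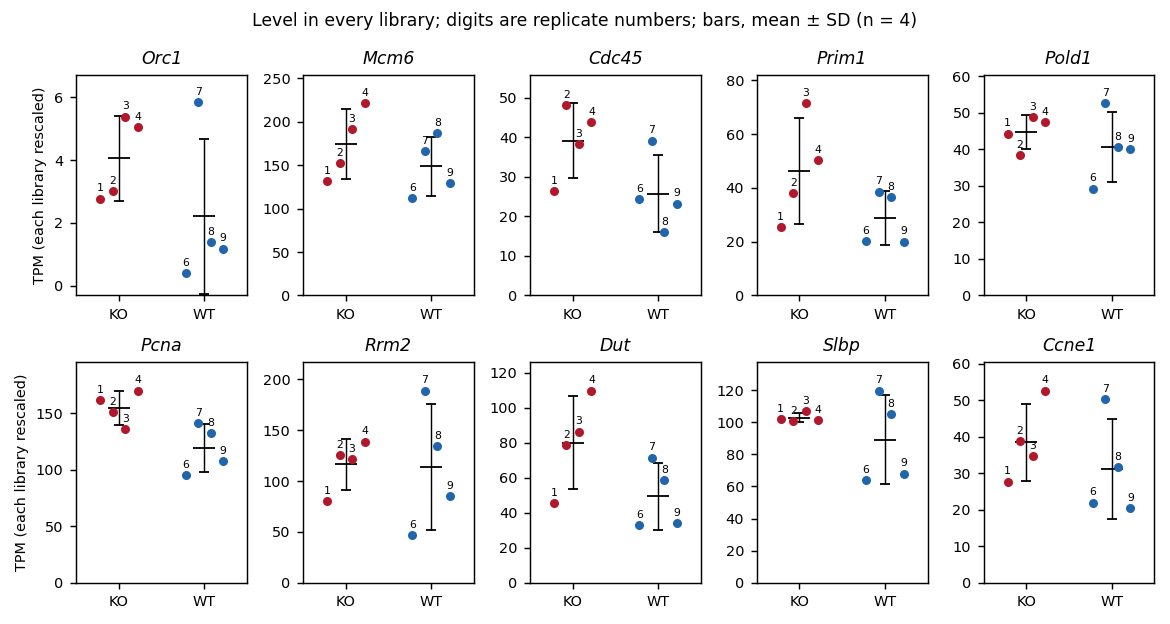
TPM of 10 replication genes in every library (points, with the replicate number beside each), with mean and SD (n = 4) in black; each panel has its own linear axis. KO and WT points overlap in every panel, and WT 6 is the lowest of all libraries for Orc1, Mcm6, Pold1, Pcna, Rrm2, Dut and Slbp.

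DNA polymerase alpha and primase lay the first stretch of each new strand, polymerase delta extends the lagging strand and polymerase epsilon the leading strand. Of these 6 genes 5 had positive log2 fold changes, from -0.16 for Prim2 to 0.63 for Prim1, and 0 were called. Pold1, the catalytic subunit of polymerase delta (chromosome 7, 44532744 to 44548815), was at 44.4, 38.4, 48.8 and 47.6 TPM in KO libraries against 29.3, 52.6, 40.6 and 40.1 TPM in WT libraries. WT libraries held both its lowest and its highest value, and the log2 fold change was 0.16 with a 95% interval of -0.26 to 0.58. Prim1, the catalytic primase subunit (chromosome 10, 128015215 to 128030030), was at 25.3, 38.1, 71.5 and 50.5 TPM in KO libraries against 20.3, 38.7, 36.5 and 20.1 TPM in WT libraries. KO 3 and KO 4 were above all the others, while KO 1 and KO 2 lay among WT values (limma adjusted p = 0.605). Among the catalytic polymerase subunits Pold1 was highest and Pole lowest in 8 of 8 libraries, with means of 42.7 and 5.63 TPM and Pola1 between them at 14.5 TPM.

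Pcna, the sliding clamp that holds polymerases on DNA, gave the smallest p of the set. Pcna (chromosome 2, 132249286 to 132253180) was at 162, 151, 136 and 170.0 TPM in KO 1 to 4 and at 95.1, 141, 133 and 108 TPM in WT 6 to 9. Every KO library was above WT 6, WT 8 and WT 9, and WT 7 was above KO 3 alone. The means were 155 ± 14.8 and 119 ± 21.4 TPM (SD, n = 4), a log2 fold change of 0.39 (SE 0.16, 95% interval 0.03 to 0.74, limma unadjusted p = 0.0344, adjusted p = 0.525). The unadjusted limma p of Pcna was 0.0735 when scaled without ribosomal protein and the top 20 genes by level, and 0.0783 with quantile normalization. Unlike most of the set, Pcna was above its mean in KO 1. The 4 small subunits of the clamp loader RFC had log2 fold changes from 0.15 for Rfc5 to 0.71 for Rfc3, the flap nuclease Fen1 had 0.17 and DNA ligase 1, Lig1, had 0.49. All 7 genes were positive and 0 were called. Rfc2 was the highest of the loader subunits in 8 of 8 libraries, at a mean of 111 TPM against 56.8 for Rfc5, 41.7 for Rfc3 and 41.2 for Rfc4. Rfc3 and Rfc4 were each the lowest of the loader subunits in 4 of 8 libraries.

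Nucleotide supply is served by ribonucleotide reductase (Rrm1 and Rrm2), thymidylate synthase (Tyms), thymidine kinase (Tk1) and dUTPase (Dut), while Ung removes uracil from DNA. The log2 fold changes of these 6 genes were all positive, from 0.05 for Tyms to 0.70 for Dut, except that Tyms was at -0.077 when scaled without ribosomal protein and the top 20 genes by level, and 0 were called. Rrm2, the S phase subunit of the reductase (chromosome 12, 24708254 to 24714146), was at 80.0, 125, 121 and 139 TPM in KO libraries against 46.7, 189, 135 and 85.4 TPM in WT libraries. WT libraries again held both extremes, and the means were 116 ± 25.4 and 114 ± 61.6 TPM (SD, n = 4; 95% interval of the log2 fold change -0.68 to 1.05). Dut (chromosome 2, 125247248 to 125259049) was at 45.4, 78.9, 86.5 and 109.8 TPM in KO libraries against 32.9, 71.5, 58.7 and 34.2 TPM in WT libraries. KO 2, KO 3 and KO 4 were above every WT library and KO 1 was below WT 7 and WT 8 (log2 fold change 0.70, SE 0.32, limma adjusted p = 0.561). Tk1 ranged from 23.6 TPM in WT 6 to 116 TPM in KO 4.

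Chaf1a and Chaf1b form the chromatin assembly factor that places histones on new DNA, Uhrf1 brings the maintenance methyltransferase to it, and Slbp binds the stem loop of histone mRNA. All 4 were positive, from 0.05 for Chaf1b to 0.36 for Uhrf1, except that Chaf1a and Chaf1b were at -0.023 and -0.076 under that same scaling, and 0 were called. Slbp (chromosome 5, 33640055 to 33652574) was at 102, 101, 107 and 101 TPM in KO libraries against 63.8, 119.6, 105 and 68.0 TPM in WT libraries. KO values were close together and WT values lay on both sides of them, with means of 103 ± 2.78 and 89.2 ± 27.5 TPM (SD, n = 4; limma adjusted p = 0.733). Chaf1a ranged from 2.77 TPM in KO 1 to 21.6 TPM in WT 7.

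Cyclin E, encoded by Ccne1 and Ccne2, drives S phase entry with Cdk2, E2f1 is one of the factors that switch the program on, and Clspn relays the checkpoint signal from stalled forks. The log2 fold changes ran from -0.04 for Clspn to 0.35 for Ccne1, with 3 of 4 positive and 0 called. Ccne1 (chromosome 7, 38097984 to 38107490) was at 27.7, 38.7, 34.7 and 52.6 TPM in KO libraries against 21.9, 50.4, 31.6 and 20.5 TPM in WT libraries. KO 4 and WT 7 were the highest and WT 9 and WT 6 the lowest (log2 fold change 0.35, 95% interval -0.32 to 1.02). Ccne1 was above Ccne2 in 8 of 8 libraries, with means of 34.8 and 4.88 TPM. E2f1 was at 3.12 to 4.49 TPM in KO 1 to 3 and at 11.4 TPM in KO 4, and at 3.66 to 6.30 TPM in WT libraries.

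**Figure D3:**
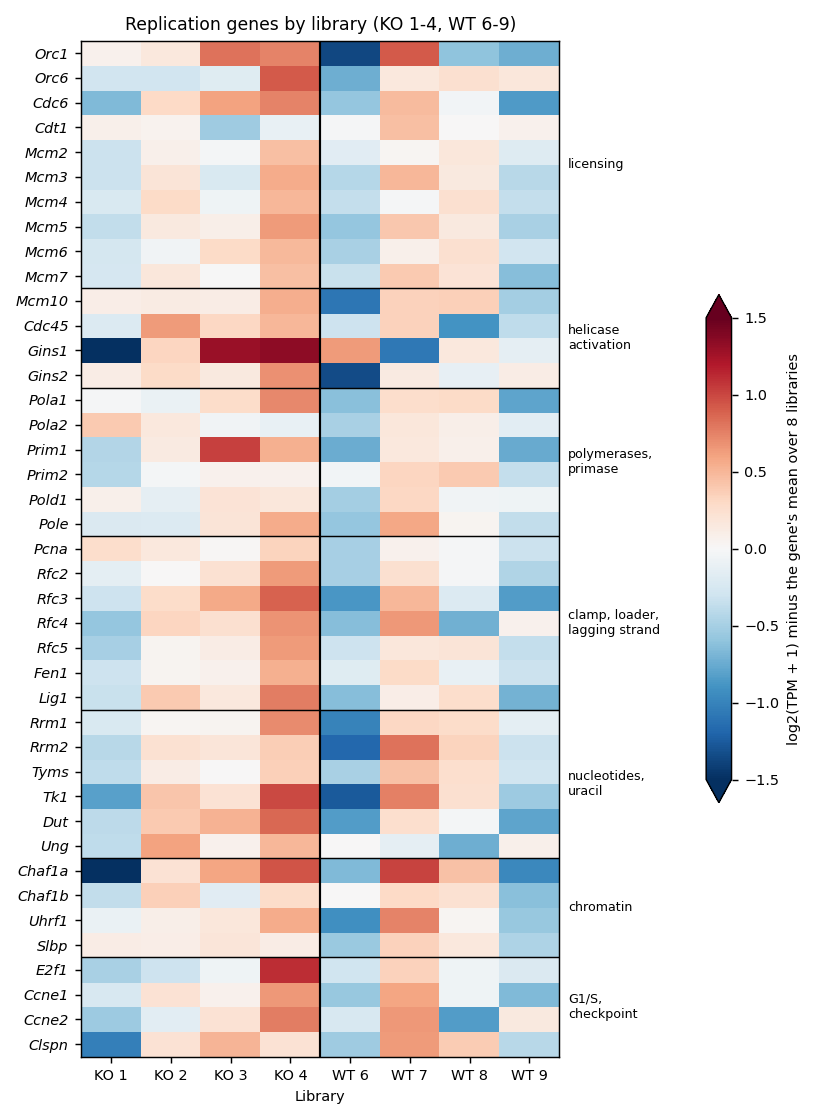
Colour gives log2(TPM + 1) minus the gene's mean over 8 libraries, for 41 genes in rows grouped by role and 8 libraries in columns, on a scale that ends at 1.5 in either direction. The columns for WT 6, WT 9 and KO 1 are mostly blue (below the mean) and those for KO 4 and WT 7 mostly red (above it).

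The difference between libraries was shared by most of the set. KO 4 gave the highest value of 8 libraries for 25 of 41 genes and WT 7 for 10, while WT 6 gave the lowest for 20, WT 9 for 9 and KO 1 for 7. Over all 10732 genes tested KO 4 was highest for 2269 and WT 6 was lowest for the same number, 2269. WT 7 was highest for 1685 of them, and WT 9 and KO 1 were lowest for 1921 and 1639. As shares, the counts of WT 9 and KO 1 among the 41 genes were little above those of all genes. The summed level of the 41 genes was 1691, 2189.6, 2169.7 and 2846 TPM in KO 1 to 4 and 1363, 2504, 2119.7 and 1518 TPM in WT 6 to 9. The ranges of the genotypes overlapped, with means of 2224 ± 474 TPM in KO and 1876 ± 531 TPM in WT (SD, n = 4). In KO 4 95.1% of the 41 genes were above their own mean over the 8 libraries, against 63.4% of all genes tested, and in WT 7 the shares were 92.7% and 58.8%. In WT 6 they were 7.32% and 40.6%, in WT 9 14.6% and 39.8%, and in KO 1 19.5% and 44.5%. KO 2 (80.5%, against 46.0% of all genes), KO 3 (78.0% against 61.1%) and WT 8 (63.4% against 60.3%) lay between. Within KO libraries KO 1 was the lowest for 35 of 41 genes, for which no share over all genes was taken. Within WT libraries WT 6 or WT 9 was the lowest for 36, as for 62.9% of all genes tested.

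The ratio of the highest to the lowest library had a median of 2.71 over the 40 genes above 0 everywhere. It was smallest for Mcm2 (1.72) and Pcna (1.79) and largest for Orc1 (14.4), Chaf1a (7.79) and Tk1 (4.93). Orc1 is among the 8 genes with a mean below 10 TPM, where the rounding of the deposited score weighs most.

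Genes of G2/M and mitosis, 23 in all, had their lowest sums in the same 3 libraries and a different order among the other 5. Their sum was 574, 1197, 1022 and 1078 TPM in KO 1 to 4 and 469, 1484, 1089 and 483 TPM in WT 6 to 9. WT 6, WT 9 and KO 1 were the lowest, as for the replication genes, while KO 4 was below WT 7, KO 2 and WT 8. WT 7, and not KO 4, was the highest for 17 of 23 G2/M genes, where KO 4 had been highest for 25 of 41 replication genes. Over all 10732 genes tested WT 7 was highest for 1685 and KO 4 for 2269. The replication sum was 2.94, 1.83, 2.12 and 2.64 times the G2/M sum in KO 1 to 4 and 2.91, 1.69, 1.95 and 3.14 times in WT 6 to 9, so the ratio was high in the libraries with low G2/M values and in KO 4. Mki67, a marker of cycling cells, was at 6.91 to 7.62 TPM in WT 6, WT 9 and KO 1 and between 15.6 and 20.7 TPM in the remaining 5. Of the 23 G2/M genes 0 passed the adjusted threshold and 19 were positive, with a median log2 fold change of 0.22.

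Markers of other states and cells followed these library differences only in part. The naive and stem-like markers had their highest sums in WT 6, WT 9 and KO 1, the libraries with the lowest replication sums, and their lowest in KO 4 and WT 7, the libraries with the highest. Tcf7, the transcription factor of naive and stem-like T cells, was at 329, 310.0 and 233 TPM in WT 6, WT 9 and KO 1 and at 24.8 and 64.3 TPM in KO 4 and WT 7. Not every marker of the list followed this order, as Il7r was at 109 TPM in both WT 7 and WT 9. The myeloid sum was highest in KO 4 but was 85.9 TPM, its lowest, in WT 7, where the replication genes were nearly as high. Lyz2, a lysozyme gene of myeloid cells, reached 902 TPM in KO 3 and 2952 TPM in KO 4 and did not exceed 47.2 TPM elsewhere. Lyz2 and Cd74 (1442 and 1610 TPM in KO 3 and KO 4) made up most of the myeloid sum there. Of the 11 tested markers of that list 10 had positive log2 fold changes and 1, Apoe, was negative. Apoe was at 0.897 and 4.21 TPM in KO 3 and KO 4 and at 3.47 to 49.6 TPM in WT libraries. Tumour and stromal markers reached 188 TPM in KO 4 alone, with Fn1 at 69.4, Krt8 at 45.4 and Col1a1 at 4.63 TPM there. The part of any of these markers in the replication values was not tested.

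**Figure D4:**
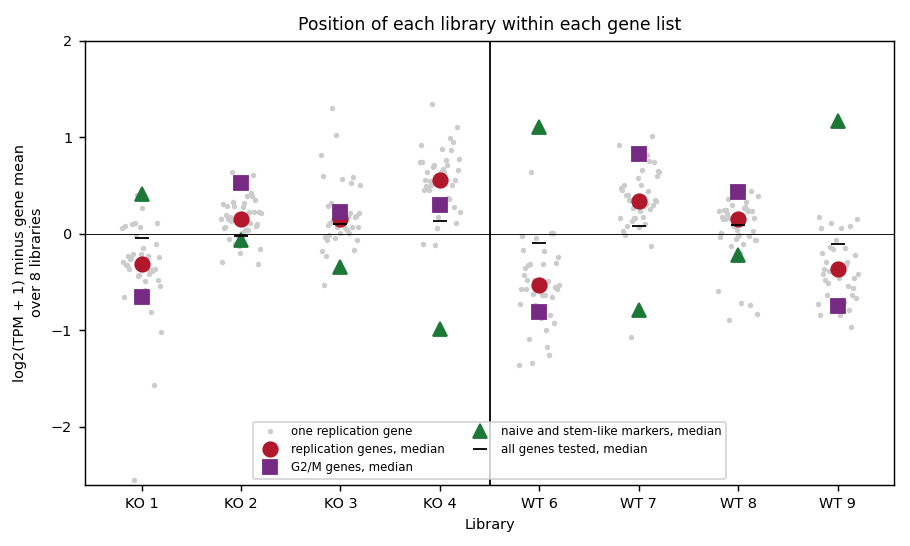
log2(TPM + 1) minus each gene's mean over 8 libraries, by library: 41 replication genes (grey points) and the medians of the replication genes, the G2/M genes, the naive and stem-like markers and all genes tested. Replication and G2/M medians are below 0 in KO 1, WT 6 and WT 9, where the naive and stem-like median is above 0. One grey point for Gins1 in KO 1 is the lowest of all.

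The median log2 fold change of the 41 genes depended on which libraries were compared. It was 0.25 with all libraries, 0.04 without KO 3 and KO 4, -0.06 without WT 6 and WT 9, and -0.27 without both pairs, when 36 of 41 genes were negative. The medians of all genes tested in these settings were 0.04, -0.02, -0.05 and -0.11. Adding the mean level of the myeloid markers to the model as a covariate gave a median of 0.01 with 22 of 41 genes positive. None of the 41 genes was called in any of these settings.

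**Figure D5:**
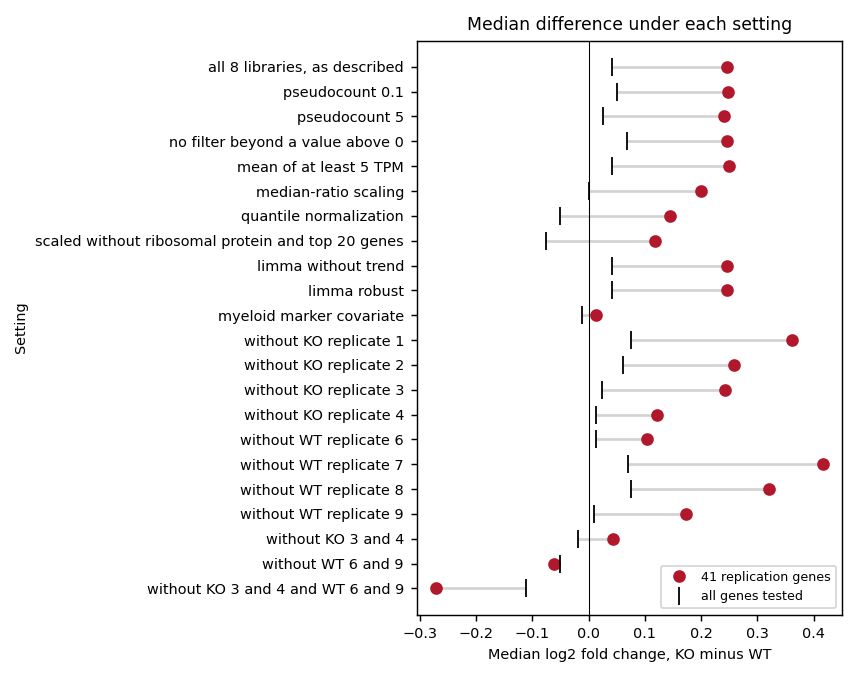
Median log2 fold change, KO minus WT, of the 41 replication genes (circles) and of all genes tested (ticks), with all libraries as described and under each of 21 other settings. The circle lies between -0.27 and 0.42 and is below 0 only without WT 6 and 9 and without KO 3 and 4 and WT 6 and 9.

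Other genes of the same processes, taken from lists, also gave 0 calls at an adjusted p under 0.05. Of 31 further replication genes, such as RPA, the remaining GINS and polymerase subunits and the origin kinase Cdc7, 22 were positive, with a median of 0.18. Rpa2, a subunit of the single-strand binding protein, had 109 ± 10.3 TPM in KO and 77.0 ± 18.8 TPM in WT (SD, n = 4; log2 fold change 0.51, limma adjusted p = 0.472). Dscc1, which belongs to an alternative clamp loader, had 7.64 ± 1.54 and 3.58 ± 1.98 TPM in KO and WT. Among 14 further S phase genes of nucleotide and chromatin supply 11 were positive. Asf1a, a histone chaperone, was at 3.12 to 7.48 TPM in KO libraries and 6.29 to 14.9 TPM in WT libraries (log2 fold change -0.95). Shmt1, a folate enzyme of thymidylate synthesis, had KO libraries (14.8 to 30.3 TPM) above WT libraries (5.40 to 14.2 TPM) without overlap (limma adjusted p = 0.517). Of all genes tested 2.62% were separated in this way, and Shmt1 was picked for its small p.

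Upstream regulators were mixed in sign. Of 14 G1/S cyclins, kinases and E2F factors 8 were positive and 6 negative, with a median of 0.06. Ccnd2, a D cyclin of lymphocytes, had 99.6 ± 18.3 TPM in KO and 132 ± 12.7 TPM in WT (SD, n = 4; log2 fold change -0.41, limma adjusted p = 0.501). Ccnd1 was at 19.7 and 12.6 TPM in KO 3 and KO 4, where the myeloid sum was also highest, and did not exceed 1.51 TPM elsewhere. Of 12 tested brakes on S phase entry 7 were positive and 5 negative. Cdkn1a, the p21 inhibitor of cyclin-dependent kinases, was at 35.3, 26.6, 97.2 and 107 TPM in KO 1 to 4 and at 4.06, 41.4, 29.2 and 3.15 TPM in WT 6 to 9 (log2 fold change 2.16, SE 0.81, limma adjusted p = 0.501). Its lowest values were in WT 6 and WT 9, which also had the lowest replication sums. Its highest were in KO 3 and KO 4, where the myeloid sum was also highest, while KO 1 and KO 2 lay among WT values. The part of myeloid cells in the Cdkn1a values was not tested. Btg1, an antiproliferative gene of resting lymphocytes, had 90.3 ± 16.3 and 117 ± 10.7 TPM. Of 12 tested genes of replication stress and fork repair 8 were positive. Atrip, the partner of the checkpoint kinase ATR, had every KO library (10.05 to 13.2 TPM) below every WT library (14.9 to 17.9 TPM), with a limma adjusted p of 0.488. Of all genes tested 2.4% were separated in this way, and Atrip was picked for its small p. Exo1, a nuclease of mismatch and fork repair, was at 1.73 to 5.05 TPM in KO and 0.393 to 2.03 TPM in WT libraries. In the G2/M list the smallest p values belonged to Cenpa, the centromeric histone (134 ± 24.6 and 78.1 ± 33.3 TPM, log2 fold change 0.86, limma adjusted p = 0.478), and Bub1, a spindle checkpoint kinase (log2 fold change 0.62).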

How the data were processed

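RNA from sorted CD8+ T cells was made into full-length cDNA by a modified SMART-Seq2 method and read as pairs of 38 bases, per the labels' protocols. The authors deposited a score named a TPM-normalized count: whole numbers per gene symbol whose library totals exceed 1000000. The submitters' processing notes name RSEM 1.3.3 and mm10; the aligner, the annotation and the rounding step are details not given in the sources used here. Without a known depth no counting interval is given. After rescaling to 1000000 per library, the 10732 genes that reached 1 TPM in 4 or more libraries were tested on log2(TPM + 1), a scale that understates the change of low genes. The test was limma 3.58.1 (R 4.3.3) with group alone in the model and a trended empirical Bayes variance, two-sided, with Benjamini-Hochberg adjusted p under 0.05 as the threshold; the pipeline was tested on simulated data. The members and lists were chosen with earlier results of these data known. In each of 7 roles the gene with the highest mean and that with the smallest p are given in every library, and from each other list the 2 genes of smallest p. Genes given besides these, such as Cdt1, Gins1, Gins2, Tk1, Chaf1a and E2f1, were picked after their values were seen. Of 212 list entries 210 matched the table, 2 by a synonym. Coordinates are those of RefSeq on GRCm38.p6 (mm10). Of the members 12 overlap another protein-coding gene, among them Orc1, Mcm7 and Cdc45, and no source states that strand was used. Alternatives varied the pseudocount, filter, scaling, limma options, a myeloid covariate and the libraries. Python 3.11.15 and pandas 2.3.3 were used for the tables.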

Additional observations from a re-analysis of the deposited data

Results flagged for a closer look

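In 84 groups of 4 libraries (41 genes and their sum, in KO and in WT), 5 groups had 1 library far from the other 3, where chance marks about 1 in 20 groups, or 4.2. Orc6 was at 60.6 TPM in KO 4 (25.6 to 27.8 in the other KO libraries) and at 18.7 TPM in WT 6 (35.5 to 37.5 in the other WT libraries). Mcm10 was at 8.42 TPM in KO 4 (5.89 to 6.05), E2f1 at 11.4 TPM in KO 4 (3.12 to 4.49), and Cdt1 at 78.3 TPM in WT 7 (56.1 to 59.4).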

How the results depend on the processing

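No paired analysis was possible because KO libraries are numbered 1 to 4 and WT libraries 6 to 9. In none of the 22 settings was a replication gene called by limma (smallest adjusted p 0.318, without WT replicate 7). At an unadjusted p under 0.05 there was 1 gene with all libraries and 0 to 8 with 1 library left out (8 without WT 7, 7 without KO 1). There were 2 without a filter (Cdc45, Pcna) and with median-ratio (Dut, Pcna) or quantile scaling (Dut, Rfc3), 1 (Dut) when scaled without ribosomal protein and top 20 genes, 0 without the mean trend, with the myeloid covariate, without KO 3 and 4 and without WT 6 and 9, and 2, both lower in KO, without both pairs (Chaf1a and Rrm2). The median log2 fold change was 0.10 to 0.42 with 1 library left out, and -0.27 without both pairs. Of all genes tested 3 were called with all libraries, 2 to 5 with 1 left out (5 without KO 2) and 6 without both pairs. Of 209 values for the 10 genes shown by library, 191 kept their sign and 18 changed it. Without both pairs these were Mcm6 (-0.32), Orc1 (-0.054), Pold1 (-0.16), Prim1 (-0.27), Rrm2 (-0.67), Dut (-0.11), Slbp (-0.15) and Ccne1 (-0.28), and without WT 6 and 9 Mcm6 (-0.046), Pold1 (-0.052), Rrm2 (-0.48), Slbp (-0.13) and Ccne1 (-0.091). Mcm6 and Rrm2 also changed sign with the myeloid covariate (-0.044 and -0.079) and without KO 3 and 4 (-0.045 and -0.0042). With 1 library left out Rrm2 ran from -0.18 (without WT 6) to 0.48 (without WT 7). Orc1 could not be fitted at a mean of at least 5 TPM. The cause was not tested. Settings without pairs of libraries were chosen with earlier results known.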
